A study of Mus musculus with 6 samples.

Results

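The erythroid priming genes are a group of 10 genes of the red cell programme whose transcripts can already be read in haematopoietic stem cells (HSCs). They comprise the transcription factor genes Gata1 and Klf1, the GATA1 cofactor gene Zfpm1, the receptor genes Epor and Tfrc, the enzyme genes Car1, Car2 and Blvrb, and the alpha-globin genes Hba-a1 and Hba-a2. They were taken by symbol from a table of 46959 genes, and all 10 were found in it. RNA was sequenced from HSCs of 3 control and 3 MaeaCsf1r-Cre replicates, each made from 2000 cells sorted from the bone marrow of 2 pooled mice. Both groups were littermates, given as 8 weeks old with the series and as 7 to 12 weeks old in the methods. MaeaCsf1r-Cre mice carried floxed Maea alleles and the Csf1r-Cre transgene, an improved Cre under the Csf1r promoter, which is best known for recombination in mononuclear phagocytes, on a C57BL/6 background. The control libraries were labelled only as control, and whether they carried floxed alleles or Cre was not stated for them. HSCs were gated as CD150+ CD48- cells among lineage-negative, Sca-1+ c-Kit+ cells, and the lineage antibodies included Ter119, which marks maturing erythroid cells. MAEA is a subunit of an E3 ubiquitin ligase that was first described at the contact between macrophages and erythroblasts, and the question asked here was whether its deletion changed the erythroid transcripts that HSCs carry.

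HSCs hold low levels of transcripts of several blood lineages before they commit to any of them, a state called lineage priming. In the erythroid lineage GATA1 works with its cofactor FOG1, which Zfpm1 encodes, and takes over from GATA2 at shared sites as cells mature. KLF1 then acts on globin genes and on genes of the red cell membrane and skeleton. The receptor for erythropoietin keeps committed progenitors alive through JAK2 and STAT5, transferrin receptor 1 brings in the iron for haem, and alpha and beta globin are made in bulk only at the late stages.

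The libraries were first checked for the deleted gene and for the labelled cell type. Expression is given as deposited, in CPM, the share of a library's reads scaled to a fixed total. Maea (chromosome 5, 33335509 to 33373296 of GRCm38) had 108, 116 and 123 CPM in control and 76.9, 88.6 and 100.98 CPM in MaeaCsf1r-Cre replicates 1, 2 and 3, over the whole gene and not only its floxed part. The log2 fold change was -0.39 (limma, adjusted p = 0.967, and 0.218 when blocked on replicate number). All 10 HSC marker genes passed the filter of at least 1 CPM in at least 3 libraries, with Kit at 393 to 700.1 CPM. Of the late erythroblast markers, Alas2 and Slc4a1 lay between 0.196 and 0.839 CPM and between 0 and 2.63 CPM. Others of that list were higher, with Rhag at 66.9 to 259 CPM and Hbb-bt at 9.91 to 40.6 CPM. Its 9 matched genes summed to 201 to 404 CPM in control and 233 to 399.5 CPM in MaeaCsf1r-Cre libraries, so such transcripts were not absent. Of the macrophage markers, C1qb was at 3.79 to 8.98 CPM in control and 0 to 0.474 CPM in MaeaCsf1r-Cre HSCs, and C1qc at 2.85 to 8.40 and 0.0226 to 0.203 CPM. The 10 macrophage markers summed to 24.9 to 73.1 CPM in control and 7.65 to 52.1 CPM in MaeaCsf1r-Cre libraries, and their part in the results below was not tested. The reads behind the scaling were inferred from the steps between low CPM values. They came to 32968000 to 39614000 for control libraries and 44159000 to 60937000 for MaeaCsf1r-Cre libraries. On this estimate 3 reads, the smallest signal counted, corresponded to 0.0492 to 0.0910 CPM. Such limits cover counting error only, and every erythroid priming gene was far above them.

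Per kilobase of annotated exons, the carbonic anhydrase genes stood above all the others in every library. Car1 had 1385 ± 1155 CPM per kb and Car2 985 ± 345 CPM per kb in control HSCs (SD, n = 3), and both were higher in each library than any other member. Next came Klf1 at 116 ± 80.4, Zfpm1 at 92.4 ± 14.5, Blvrb at 59.2 ± 33.1 and Gata1 at 51.1 ± 23.7 CPM per kb. Epor, Hba-a1, Tfrc and Hba-a2 followed at 31.2 ± 16.6, 27.8 ± 12.3, 27.8 ± 24.98 and 18.5 ± 10.2 CPM per kb. Apart from the step from Car2 to Klf1, no pair of neighbours in this order lay further apart than the sum of their SDs. In MaeaCsf1r-Cre HSCs the order was the same except that Tfrc, at 29.9 ± 16.4 CPM per kb, stood above Hba-a1, at 24.9 ± 13.9 CPM per kb. Messages of globin, which dominate a red cell precursor, were at the low end of the group in these sorted cells.

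Gata1 encodes the GATA factor that drives erythroid and megakaryocytic genes and lies on chromosome X (7959260 to 7978071). It had 191, 84.2 and 98.8 CPM in control and 213, 120.0 and 165 CPM in MaeaCsf1r-Cre replicates 1, 2 and 3. The group means were 125 ± 57.8 and 166 ± 46.4 CPM (SD, n = 3 each). In each group replicate 1 was the highest, the groups overlapped, and the MaeaCsf1r-Cre library was the higher one in each of the 3 same-numbered pairs, by 1.11-, 1.43- and 1.67-fold.

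Klf1, the gene of the erythroid Krüppel-like factor, lies on chromosome 8 (84901928 to 84905291). It had 319, 119 and 94.0 CPM in control and 331, 122 and 201.5 CPM in MaeaCsf1r-Cre replicates 1, 2 and 3. The pairs numbered 1 and 2 were close to equal, at 1.04- and 1.02-fold, whereas the pair numbered 3 differed by 2.14-fold. The spread within control HSCs, 3.39-fold between replicates 1 and 3, was therefore wider than any difference between paired libraries.

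Zfpm1 (chromosome 8, 122282141 to 122337251), which encodes FOG1, was the steadiest of the 10 genes. It had 332, 269 and 369 CPM in control and 305, 309 and 321 CPM in MaeaCsf1r-Cre replicates 1, 2 and 3. The highest library exceeded the lowest by 1.37-fold, against 2.28- to 5.91-fold for the other 9 genes, and neither replicate 1 library stood out.

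The promoters of Gata1, Klf1, Epor and both alpha-globin genes are shown because GATA1 and KLF1 are known to act through short words in DNA that can be looked for in them. The 250 bases before each RefSeq start were taken on GRCm38.p6, strand of the gene, which gave 10 windows for 8 of the 10 genes. RefSeq starts can differ from the gene limits given here, and the Gata1 window lies inside the limits of Gata1. Blvrb and Tfrc have a pair of starts each, and Car1 and Car2 were not matched. Capitals mark a GATA word (AGATAA or TGATAA, and AGATAG or TGATAG) or the CACC-box word CCNCNCCC, on either strand. The stretches below stop where an annotated exon begins.
Gata1, chrX:7967911-7968160, minus strand: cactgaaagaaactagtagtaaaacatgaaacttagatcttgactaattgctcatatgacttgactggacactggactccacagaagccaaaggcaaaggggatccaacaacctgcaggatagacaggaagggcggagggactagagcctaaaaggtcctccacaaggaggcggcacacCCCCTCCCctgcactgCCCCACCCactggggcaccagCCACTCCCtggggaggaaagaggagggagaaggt
Klf1, chr8:84901732-84901927, plus strand: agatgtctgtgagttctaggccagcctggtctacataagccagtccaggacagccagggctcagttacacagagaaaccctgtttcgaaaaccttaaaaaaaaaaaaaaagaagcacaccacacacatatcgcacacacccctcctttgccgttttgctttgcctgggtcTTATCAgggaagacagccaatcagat
Epor, chr9:21963577-21963826, minus strand: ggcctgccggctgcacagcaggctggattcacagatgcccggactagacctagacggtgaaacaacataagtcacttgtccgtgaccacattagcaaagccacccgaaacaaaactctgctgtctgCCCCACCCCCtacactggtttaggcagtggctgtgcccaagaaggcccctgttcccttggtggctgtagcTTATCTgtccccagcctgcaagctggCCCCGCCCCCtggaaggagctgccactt
Hba-a1, chr11:32283422-32283510, plus strand: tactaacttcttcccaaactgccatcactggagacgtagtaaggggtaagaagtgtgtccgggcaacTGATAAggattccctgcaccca
Hba-a2, chr11:32296242-32296488, plus strand: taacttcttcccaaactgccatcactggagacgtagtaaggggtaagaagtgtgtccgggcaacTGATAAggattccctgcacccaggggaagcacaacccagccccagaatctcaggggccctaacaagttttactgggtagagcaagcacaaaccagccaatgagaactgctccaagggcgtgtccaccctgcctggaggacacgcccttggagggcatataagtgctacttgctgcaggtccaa
A GATA word was found in 5 of the 10 windows, those of Klf1, Epor, Hba-a1, Hba-a2 and the downstream start of Blvrb, and in 26.5% of 32851 mouse windows of the same length. The CACC-box word was found in 6 of the 10 windows, those of Gata1, Zfpm1, Epor, the upstream start of Blvrb and both starts of Tfrc, and in 45.9% of all windows. The Epor window alone held both words, as 8.19% of all windows did. In the Klf1 and Epor windows the GATA word began 80 and 54 bases before the RefSeq start. The Klf1 window ran to base 84901981, beyond the gene start at 84901928 given above, where the printed stretch stops. The Hba-a1 and Hba-a2 windows were the same in all 247 bases that they share once shifted by 3 bases. A word in such a window is a description of the letters and does not show that a factor was bound.

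Epor, the erythropoietin receptor gene, lies on chromosome 9 (21958897 to 21963506). It had 100.1, 39.8 and 46.4 CPM in control and 123, 57.3 and 77.2 CPM in MaeaCsf1r-Cre replicates 1, 2 and 3. The differences within the same-numbered pairs were 1.23-, 1.44- and 1.66-fold, higher in MaeaCsf1r-Cre each time. Replicate 1 exceeded replicate 2 by 2.51-fold in control and by 2.15-fold in MaeaCsf1r-Cre HSCs, more than any of the paired differences.

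Tfrc (chromosome 16, 32608920 to 32632794), which encodes the transferrin receptor CD71 used to sort early erythroid cells, had the steepest step between replicates of the regulators and receptors. It was at 349.8, 92.7 and 72.8 CPM in control and at 299.7, 108 and 148 CPM in MaeaCsf1r-Cre replicates 1, 2 and 3. The pair numbered 1 was 0.857-fold, and the other pairs were 1.17- and 2.03-fold, so the pairs did not share a direction.

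Car1 and Car2 encode cytosolic carbonic anhydrases, which interconvert carbon dioxide and bicarbonate in red cells, and lie near each other on chromosome 3, with Car3 between them (14766216 to 14808368 and 14886273 to 14900770). Car1 had 3356, 1209.9 and 617 CPM in control and 3645, 1402 and 1486 CPM in MaeaCsf1r-Cre replicates 1, 2 and 3. It had the widest range of the 10 genes, 5.91-fold from the lowest to the highest library, and was higher in MaeaCsf1r-Cre in each pair by 1.09-, 1.16- and 2.41-fold. Car2 had 3346, 1987 and 1823 CPM in control and 3019, 1470.5 and 2425 CPM in MaeaCsf1r-Cre replicates 1, 2 and 3. Its pairs went both ways, at 0.902-, 0.740- and 1.33-fold. No stretch of 150 bases, the length of a read, was identical between their annotated transcripts.

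Blvrb (chromosome 7, 27447978 to 27466144), the gene of biliverdin reductase B, a flavin reductase abundant in red cells, had 271, 109 and 115 CPM in control and 341, 142 and 214 CPM in MaeaCsf1r-Cre replicates 1, 2 and 3. The pairs were 1.26-, 1.31- and 1.87-fold higher in MaeaCsf1r-Cre HSCs. Its order of the 6 libraries was the same as that of Gata1 and Epor, from MaeaCsf1r-Cre replicate 1 at the top to control replicate 2 at the bottom.

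Hba-a1 and Hba-a2, the adult alpha-globin genes on chromosome 11 (32283511 to 32284465 and 32296489 to 32297298), followed another order. Hba-a1 had 30.5, 11.3 and 26.0 CPM in control and 10.46, 17.6 and 32.5 CPM in MaeaCsf1r-Cre replicates 1, 2 and 3. Hba-a2 had 16.4, 4.49 and 16.0 CPM in control and 6.85, 9.72 and 24.6 CPM in MaeaCsf1r-Cre replicates 1, 2 and 3. For both genes the highest library was MaeaCsf1r-Cre replicate 3, and MaeaCsf1r-Cre replicate 1, which was at the top for Gata1, Klf1, Epor, Car1 and Blvrb, was among the lowest pair of libraries. Reads could be split between the copies, since 48.4% of the 150-base windows of the Hba-a1 transcript and 65.7% of those of the Hba-a2 transcript were identical in the other copy, and none of their 12 values was a whole number of reads. Their values are therefore uncertain one by one, and the sum of both was 34.9 ± 16.7 CPM in control and 33.9 ± 20.7 CPM in MaeaCsf1r-Cre HSCs (SD, n = 3 each). The adult beta-globin genes Hbb-bs and Hbb-bt summed to 33.7 ± 18.95 and 33.99 ± 15.8 CPM, and alpha to beta globin was 0.952 to 1.34 in control and 0.713 to 1.10 in MaeaCsf1r-Cre libraries. The embryonic globin genes Hba-x and Hbb-bh1 were at 0 in all 6 libraries, an upper limit of 3 reads.

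**Figure D1:**
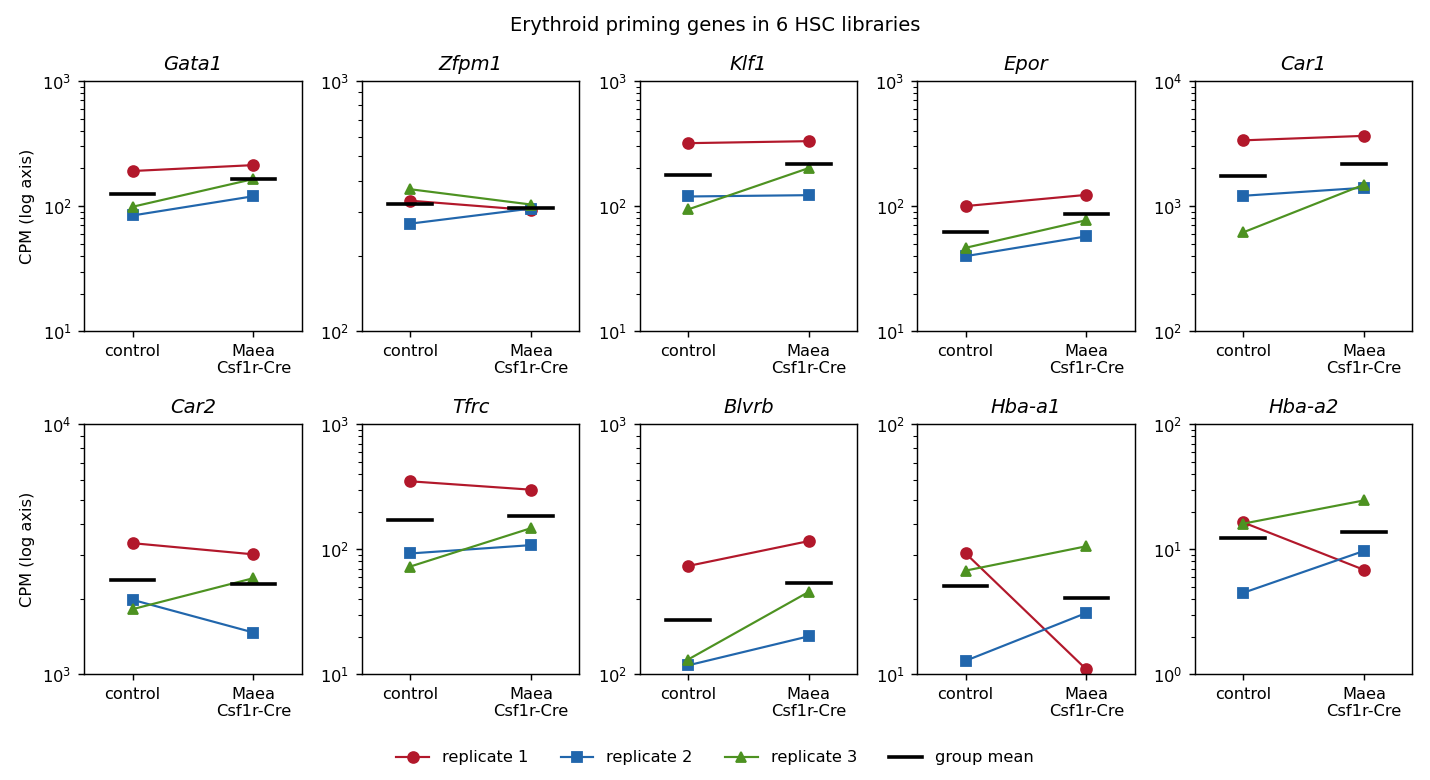
CPM (log axis) of each of the 10 genes in the 3 control and 3 MaeaCsf1r-Cre libraries, with same-numbered libraries joined and bars at the group means. Replicate 1 of both groups lies at the top for 7 genes, among them Gata1 at 191 and 213 CPM and Tfrc at 349.8 and 299.7 CPM, and not for Zfpm1, Hba-a1 and Hba-a2.

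No erythroid priming gene differed between MaeaCsf1r-Cre and control HSCs once all genes were taken into account. On log2(CPM + 1) with limma, the adjusted p over 12955 genes was 0.967 to 0.988 for the 10 genes, and 0.00772% of all genes, a single one, passed 0.05. None of the 10 had an unadjusted p under 0.05 in this fit, which 3.99% of all genes had, and the lowest was 0.188, for Gata1. In all 10 genes the groups overlapped. Over all genes they did not overlap for 8.55%, a share too low for 10 genes to show a contrast with it. The group mean was higher in MaeaCsf1r-Cre for 7 of the 10 genes, as for 5060 of the 12955 genes tested. The median log2 fold change of the 10 was 0.36, against -0.06 over all genes tested. That median fell to 0.05 without control replicate 3, to 0.15 without control replicate 2 and to 0.14 without MaeaCsf1r-Cre replicate 1, and it was 0.67 and 0.86 without MaeaCsf1r-Cre replicate 2 and control replicate 1. The log2 fold changes with the highest values were 0.54 for Blvrb (95% interval -0.41 to 1.48), 0.53 for Car1 (-0.87 to 1.94), 0.51 for Epor (-0.37 to 1.39) and 0.46 for Gata1 (-0.28 to 1.21). Those of Klf1 and Tfrc were 0.39 (-0.74 to 1.53) and 0.34 (-1.04 to 1.71). Hba-a2, Zfpm1, Car2 and Hba-a1 were at 0.13, -0.04, -0.06 and -0.18, and the sum of both alpha globins at -0.07. Without control replicate 3 the value of Car1 became -0.04 and that of Tfrc -0.10, which was -0.08 without MaeaCsf1r-Cre replicate 1, while Gata1, Klf1, Epor and Blvrb kept their sign whichever library was left out. Their size did depend on single libraries. Klf1 was at 0.04 without control replicate 3 or MaeaCsf1r-Cre replicate 1 and at 0.92 without control replicate 1. Gata1 was at 0.23 without control replicate 2 and 0.82 without control replicate 1, and without MaeaCsf1r-Cre replicate 1 and control replicate 1 Epor was at 0.22 and 0.91 and Blvrb at 0.21 and 0.96.

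Same-numbered libraries deviated together across all genes, so each gene was also tested blocked on that number. With the block the 95% interval of 4 genes no longer included 0. Epor had a log2 fold change of 0.51 (0.25 to 0.77), Blvrb 0.54 (0.24 to 0.83), Gata1 0.46 (0.18 to 0.75) and Car1 0.53 (0.02 to 1.04). An unadjusted p under 0.05 with the block was found for 13.9% of all genes, and for 3.11% together with a higher level in MaeaCsf1r-Cre. After adjustment by limma over 12955 genes none of the 10 passed, with an adjusted p of 0.210 for Epor, 0.218 for Blvrb, 0.232 for Gata1 and 0.345 for Car1, and 0.00772% of all genes did. Gata1, Klf1, Epor, Car1 and Blvrb, 5 of the 10 genes, were higher in MaeaCsf1r-Cre in 3 of 3 pairs, as 13.2% of all genes were, and none was lower in 3 of 3 pairs. The pair numbered 3 had the largest difference of the 3 pairs for each of those 5 genes.

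**Figure D2:**
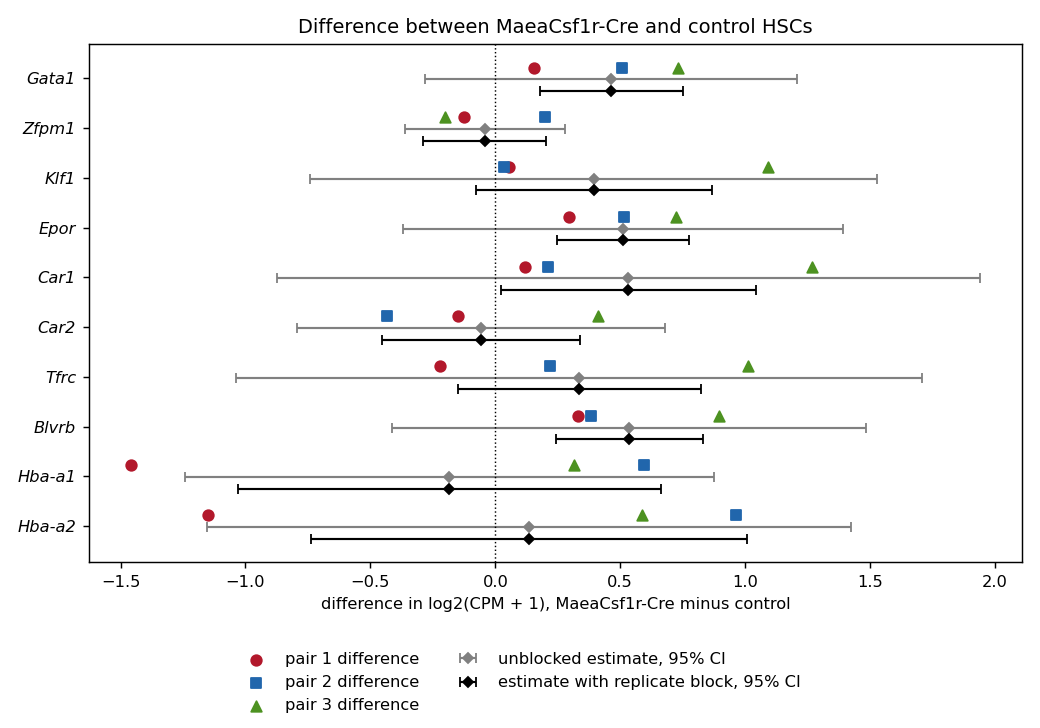
Difference in log2(CPM + 1) between MaeaCsf1r-Cre and control HSCs for each gene, as the 3 same-numbered pairs (coloured points) and as limma's estimate with its 95% interval, unblocked (grey) and blocked on the replicate number (black). The blocked interval lies above 0 for Gata1, Epor, Car1 and Blvrb, and every unblocked interval includes 0.

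The replicate number separated the libraries of most of these genes more than the genotype did. In both groups replicate 1 was above replicates 2 and 3 for 7 of the 10 genes, and both replicate 1 libraries were above the other 4 libraries for these 7, as for 17.7% of all genes. They were Gata1, Klf1, Epor, Car1, Car2, Tfrc and Blvrb. Within control HSCs replicate 1 exceeded replicate 3 by 1.84-fold for Car2 up to 5.44-fold for Car1. Over the 6 libraries the median share of the sum of squares of log2(CPM + 1) that lay between replicate numbers was 77.5% for the 10 genes and 58.8% for all genes tested, and the share between groups was 5.91% and 12.8%. Tfrc had 86.8% between replicate numbers and 4.0% between groups. Gata1, Epor and Blvrb had the highest shares between groups, 22.6, 19.8 and 18.7%. With 3 numbers and 2 groups, the first share takes 2 degrees of freedom and the second 1. The labels do not say what libraries of one number share.

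**Figure D3:**
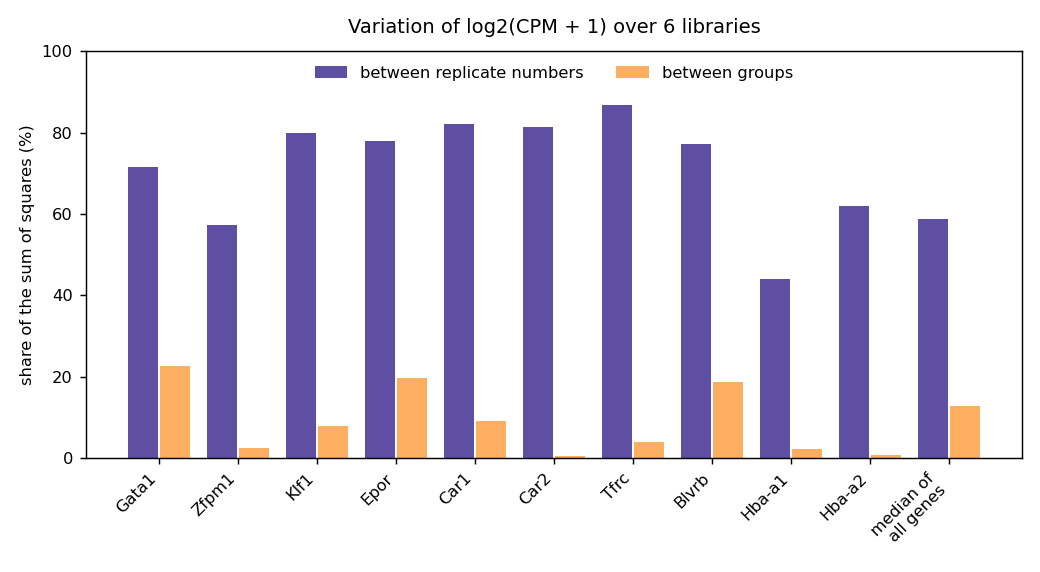
Share of the sum of squares of log2(CPM + 1) over the 6 libraries (%) between replicate numbers (purple) and between groups (orange) for each gene and for the median of all genes tested. Tfrc reaches 86.8% between replicate numbers, and Gata1 has the highest share between groups, 22.6%.

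Genes of the red cell membrane and skeleton, many of them known KLF1 targets, were read beside the 10 genes. Of 18 such genes, all tested, 11 had both replicate 1 libraries above the other 4, as 17.7% of all genes had. None had an adjusted p under 0.05 by limma with or without the block. An unadjusted p under 0.05 was found for 4 with the block and 0 without it, against 13.9% and 3.99% of all genes. Rhag, the Rh-associated glycoprotein gene, had 203, 83.03 and 66.9 CPM in control and 259, 93.8 and 161 CPM in MaeaCsf1r-Cre replicates 1, 2 and 3. This is the order of Klf1, with MaeaCsf1r-Cre replicate 3 between the replicate 1 libraries and the rest. Icam4, the gene of a blood group adhesion protein, was at 22.8, 16.6 and 20.9 CPM in control and 28.3, 26.2 and 21.8 CPM in MaeaCsf1r-Cre replicates 1, 2 and 3. Ermap, Ank1, Sptb and Rhd, named after their values were seen, had log2 fold changes of 0.52, 0.44, 0.38 and 0.34. Their adjusted p with the block was 0.325, 0.410, 0.334 and 0.325 by limma. With Rhag and Icam4 they were the 6 of the 18 genes that were higher in 3 of 3 pairs, as 13.2% of all genes were. Another 2 of the 18 were lower in 3 of 3 pairs, as 23.5% of all genes were. By group mean 5 of the 18 were lower, as 7895 of the 12955 genes tested were. The median log2 fold change of the list was 0.17. Its summed level was 1800.5, 884 and 914 CPM in control and 1851, 1003 and 1374 CPM in MaeaCsf1r-Cre replicates 1, 2 and 3.

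HSC markers ran the other way over the libraries, with a median log2 fold change of -0.47. By group mean 8 of the 10 genes were lower in MaeaCsf1r-Cre, as 7895 of the 12955 genes tested were. None passed in either limma fit. With the block 7 had an unadjusted p under 0.05, 6 of them lower, as 10.8% of all genes were, and 4 were lower in 3 of 3 pairs, as 23.5% of all genes were. The 10 markers summed to 993, 1557 and 1364 CPM in control and 679.8, 958 and 1258 CPM in MaeaCsf1r-Cre replicates 1, 2 and 3, lowest in replicate 1 of each group. Both replicate 1 libraries were below the other 4 for 6 of the 10 markers, as for 20.1% of all genes. Hlf, a transcription factor gene of HSCs, had 90.6, 203 and 127 CPM in control and 41.5, 78.6 and 139 CPM in MaeaCsf1r-Cre replicates 1, 2 and 3. Kit, the stem cell factor receptor gene used in the gate, was 0.38 lower on the log2 scale in MaeaCsf1r-Cre HSCs (limma, adjusted p = 0.967, and 0.281 with the block). The gate genes Ly6a (Sca-1) and Slamf1 (CD150) were the 2 markers higher by group mean, with log2 fold changes of 0.23 and 0.18. Ly6a was higher in 3 of 3 pairs (limma with the block, adjusted p = 0.349). Late erythroblast markers summed to 404, 201 and 216 CPM in control and 399.5, 233 and 340.2 CPM in MaeaCsf1r-Cre replicates 1, 2 and 3, a list that shares Rhag and Slc4a1, among others, with the membrane genes and also holds the beta globins. Of the 8 late erythroblast genes tested, 2 had both replicate 1 libraries highest, as 17.7% of all genes did. The part of these markers in the levels of the erythroid priming genes was not tested. In such bulk libraries, more cells that carry a transcript and more transcript in each cell cannot be told apart.

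**Figure D4:**
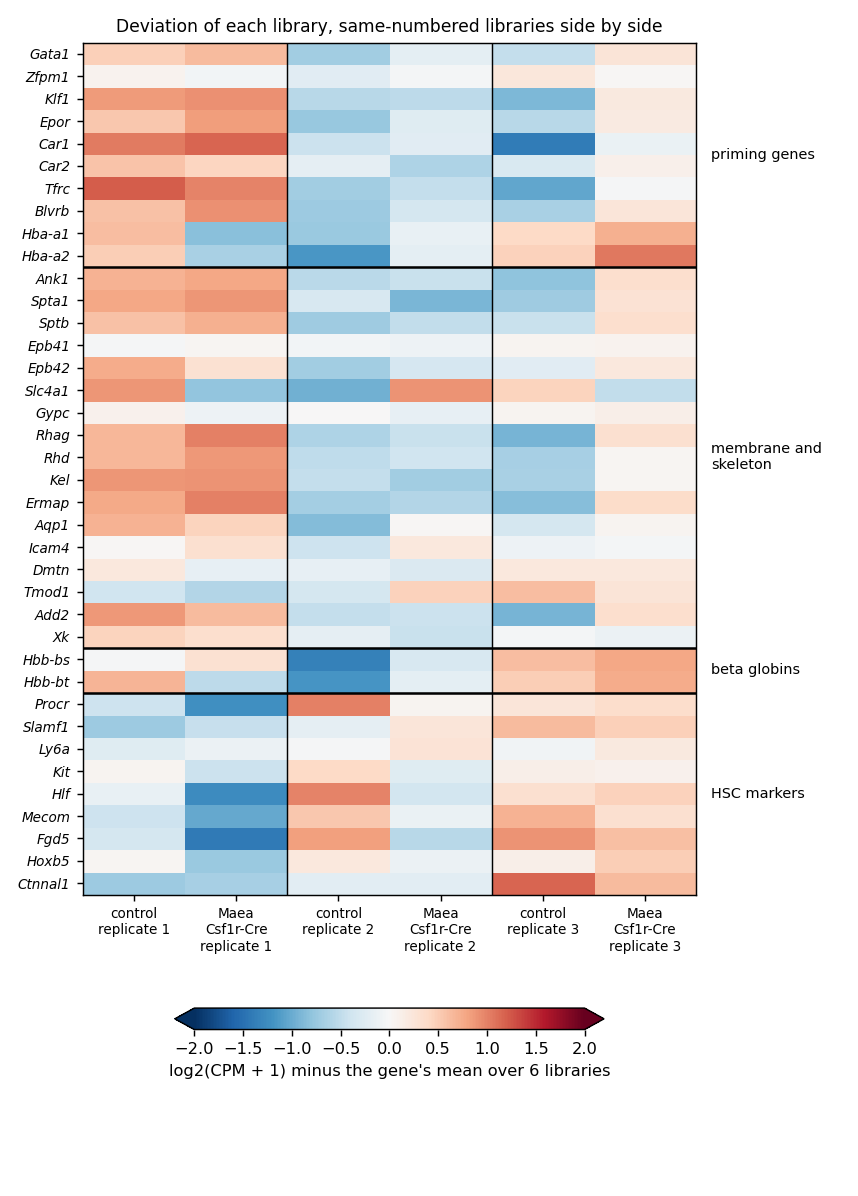
Deviation of each library from the gene's mean over the 6 libraries, in log2(CPM + 1), for the erythroid priming genes, the red cell membrane and skeleton genes, the beta globins and the HSC markers, with same-numbered libraries side by side. Both replicate 1 libraries are above the other 4 for 7 of the 10 priming genes and 11 of the 17 membrane genes drawn, and below them for 5 of the 9 HSC markers drawn.

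Ratios of genes within a library do not depend on its scaling, and were used to set erythroid genes against genes of other fates. Gata1 was read against Gata2, which it replaces during maturation, and against Spi1, the gene of the myeloid factor PU.1 that antagonises GATA1. The log2 ratio of Gata1 to Gata2 was 0.61, -0.82 and -0.72 in control and 1.01, -0.34 and -0.02 in MaeaCsf1r-Cre replicates 1, 2 and 3. The difference was 0.53 (exact permutation test, two-sided, p = 0.5), and was 0.13 without MaeaCsf1r-Cre replicate 1. It was positive in 3 of 3 pairs, at 0.40, 0.48 and 0.70, with 0.25 the smallest p that 3 pairs allow by an exact permutation test. The log2 ratio of Gata1 to Spi1 was 2.26, 0.47 and 1.25 in control and 3.07, 1.37 and 1.78 in MaeaCsf1r-Cre replicates 1, 2 and 3. Its difference of 0.74 was also positive in 3 of 3 pairs, at 0.81, 0.89 and 0.53 (exact permutation test, p = 0.4, and 0.25 paired), and was 0.25 without MaeaCsf1r-Cre replicate 1. Spi1 itself had 39.0, 60.4 and 41.0 CPM in control and 24.5, 45.9 and 47.3 CPM in MaeaCsf1r-Cre replicates 1, 2 and 3.

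Klf1 was set against Fli1, the megakaryocytic counterpart with which it competes, and Car1 against Car2. The log2 ratio of Klf1 to Fli1 was 1.57, -0.17 and -1.15 in control and 1.91, -0.30 and 0.40 in MaeaCsf1r-Cre replicates 1, 2 and 3. It was higher in MaeaCsf1r-Cre in 2 of 3 pairs, a difference of 0.59 (exact permutation test, p = 0.6, and 0.5 paired) that became -0.03 without control replicate 3 and -0.04 without MaeaCsf1r-Cre replicate 1. The log2 ratio of Car1 to Car2 was 0.00, -0.71 and -1.56 in control and 0.27, -0.07 and -0.71 in MaeaCsf1r-Cre replicates 1, 2 and 3. This difference of 0.59 was positive in 3 of 3 pairs, at 0.27, 0.65 and 0.86 (exact permutation test, p = 0.4, and 0.25 paired), and was 0.19 without control replicate 3. With 3 libraries against 3 no p under 0.1 could be reached, and with 3 pairs none under 0.25, so these tests cannot show a difference in any of the 4 ratios at 0.05.

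**Figure D5:**
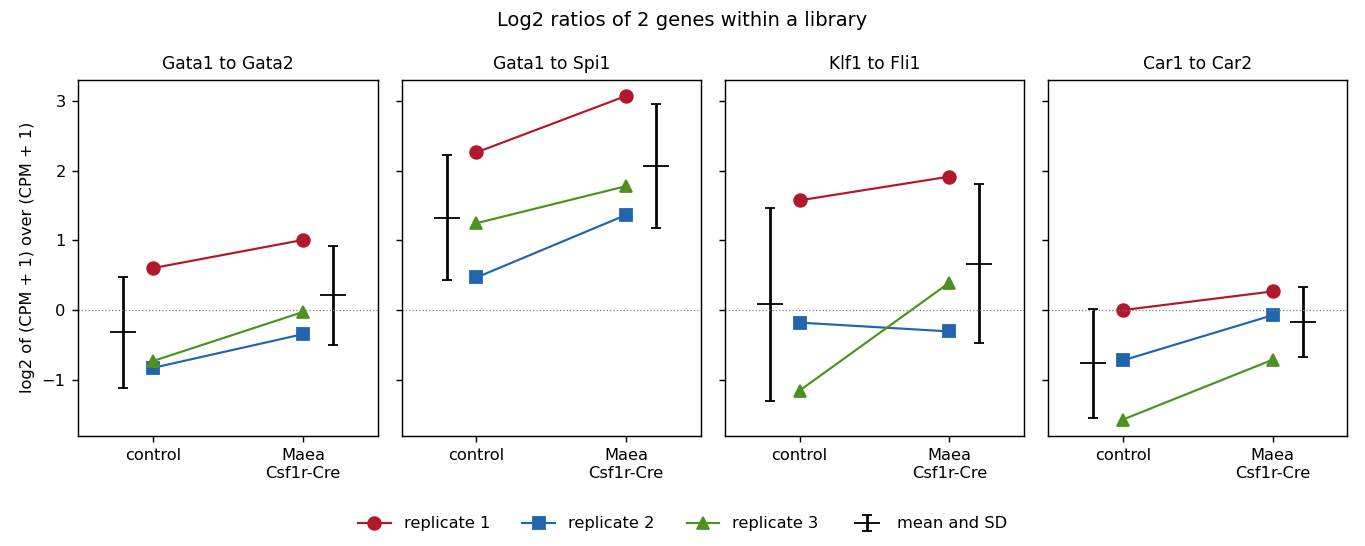
Log2 ratio of 2 genes within each library, from CPM + 1, for Gata1 to Gata2, Gata1 to Spi1, Klf1 to Fli1 and Car1 to Car2, with same-numbered libraries joined and the mean and SD of each group beside them. Every line but that of replicate 2 for Klf1 to Fli1 goes up from control to MaeaCsf1r-Cre, and replicate 1 is the highest in both groups in each panel.

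The other erythroid transcription factors and cofactors were more often lowest than highest in the replicate 1 libraries. Of 20 genes, all tested, none passed in either limma fit. An unadjusted p under 0.05 was found for 3 with the block and 0 without it, against 13.9% and 3.99% of all genes. Both replicate 1 libraries were highest for 3, against 17.7% of all genes, and lowest for 9, against 20.1%. The median log2 fold change was -0.07. Foxo3, a factor that erythroid cells use in their maturation, had 39.9, 65.4 and 46.9 CPM in control and 27.6, 40.4 and 44.6 CPM in MaeaCsf1r-Cre replicates 1, 2 and 3. Nfe2, a partner factor at globin loci and in megakaryocytes, had 211, 318 and 285 CPM in control and 169, 237 and 267 CPM in MaeaCsf1r-Cre replicates 1, 2 and 3. Both were lower in MaeaCsf1r-Cre in each of the 3 pairs, as were 5 of the 20 genes and 23.5% of all genes. Their log2 fold changes were -0.42 and -0.28 (limma, adjusted p = 0.967 for each, and 0.275 and 0.281 with the block). Gata2 and Fli1 had log2 fold changes of -0.06 and -0.19.

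Downstream of Epor, 17 of 18 signalling genes were tested, none passed in either limma fit, and the median log2 fold change was -0.08. With the block 2 had an unadjusted p under 0.05 and without it 1 had, against 13.9% and 3.99% of all genes. Socs3, a feedback inhibitor of JAK signalling, had 10.1, 11.3 and 4.59 CPM in control and 17.4, 39.3 and 18.04 CPM in MaeaCsf1r-Cre replicates 1, 2 and 3. The groups did not overlap for Socs3, which was 1 of the 17 genes of which this held, as for 8.55% of all genes. The log2 fold change of Socs3 was 1.401 (limma, adjusted p = 0.967, and 0.141 with the block). Gab1, an adaptor of the receptor, had a log2 fold change of -0.52. Both replicate 1 libraries were highest for none of the 17 genes and lowest for 8 of them, in contrast to Epor itself. Over all genes these shares were 17.7% and 20.1%.

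Beside Tfrc, all 14 genes of iron uptake, storage and export were tested, none passed in either limma fit, and the median log2 fold change was 0.03. With the block 4 had an unadjusted p under 0.05 and without it 0 had, against 13.9% and 3.99% of all genes. Both replicate 1 libraries were highest for 7 of the 14, as for 17.7% of all genes. Ncoa4, the receptor that sends ferritin to autophagy, had 95.1, 131 and 113 CPM in control and 59.7, 88.6 and 102 CPM in MaeaCsf1r-Cre replicates 1, 2 and 3. Trf, the transferrin gene, had 53.6, 60.0 and 47.2 CPM in control and 14.01, 39.3 and 51.6 CPM in MaeaCsf1r-Cre replicates 1, 2 and 3. Their log2 fold changes were -0.46 and -0.78 (limma, adjusted p = 0.967 for each, and 0.232 and 0.351 with the block).

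Beside Blvrb, 7 genes of haem breakdown and red cell antioxidant defence were tested and none passed in either limma fit. With the block 2 had an unadjusted p under 0.05 and without it 1 had, against 13.9% and 3.99% of all genes. Hmox1, the gene of a haem oxygenase, which makes biliverdin from haem, had 9.95, 8.86 and 15.5 CPM in control and 0.361, 0.317 and 5.44 CPM in MaeaCsf1r-Cre replicates 1, 2 and 3. The groups did not overlap, as for 8.55% of all genes, and the log2 fold change was -2.42 (limma, adjusted p = 0.967, and 0.0874 with the block). Hmox1 is also strongly expressed by macrophages, whose markers C1qb and C1qc were lower in the same libraries as given above, and their part in this difference was not tested. Sod1, a superoxide dismutase gene, had 49.1, 42.0 and 50.0 CPM in control and 62.0, 51.2 and 56.2 CPM in MaeaCsf1r-Cre replicates 1, 2 and 3, again with no overlap, and a log2 fold change of 0.26 (limma, adjusted p = 0.967, and 0.325 with the block). The median log2 fold change of the list was 0.01.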

How the data were processed

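The authors trimmed single-end reads with Trim Galore, aligned them to mm10 with STAR 2.5.3a, quantified them to Ensembl release 83 and normalised them in Partek Flow. SMART-Seq v4 does not keep strand. The deposited values are CPM with 0.0001 added, which was subtracted. Of values under 1 CPM, 74.6 to 76.7% of a library lay on whole reads (tolerance 0.05 reads), so counts were not recovered and no count test was used.

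A gene was kept if 3 or more libraries reached 1 CPM. The log2(CPM + 1) values entered limma's moderated test (mean-variance trend, two-sided), adjusted by Benjamini-Hochberg at a threshold of 0.05. Such fold changes understate low genes. Replicate numbers come from the labels, which do not name what they share. Pearson's r of the deviations from the group means across genes was 0.627, 0.523 and 0.397 for same-numbered libraries and -0.459 to -0.0538 for others. The deviations of a gene cancel out within a group, so the negative values partly follow from the positive ones. As same-numbered libraries deviated together, the block fit is given too. Nothing says whether pooled mice differ between libraries, and p-values measure the spread between these libraries.

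The 10 genes and all lists were chosen with earlier results of these data known. Named genes were the 10, Maea, the ratio partners, the 2 genes with the smallest p of each other list, and defining markers of summed cell type lists. Ermap, Ank1, Sptb and Rhd were added after their values were seen. The values of 2 listed genes are counted in their lists but not reported here one by one. Of the listed symbols, Hbb-b1, Hbb-b2 and Ahsp were not matched, and Tf was matched as Trf. Positions and exon lengths come from GENCODE M21 on GRCm38, and no exon of the 10 genes overlapped another gene. R 4.3.3, limma 3.58.1, Python 3.11.15, numpy 2.4.6, pandas 2.3.3, scipy 1.17.1 and matplotlib 3.10.9 were used. The alternatives were no filter, a filter at 10 CPM, a pseudocount of 0.1, median ratio scaling, quantile normalization, the replicate block, no trend, alpha globins summed, and each library left out. Chosen after seeing the data were leaving out both libraries of a number and blocking the summed globins.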

Additional observations from a re-analysis of the deposited data

How the results depend on the processing

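Across 164 values of the 10 genes under the alternatives, none had an adjusted p under 0.05 (the smallest was 0.210, for Epor with the replicate block), and 20 changed sign, none of them for Gata1, Klf1, Epor or Blvrb. Changing the filter, adding the block or dropping the trend leaves a fold change as it was, so no sign could change there. The summed alpha globins were counted for each copy. With the replicate block 1 gene passed over all genes, and the block changed no other call. Without a filter 10 genes passed, none of them among the 10 genes, and with the filter at 10 CPM none did (302 had an unadjusted p under 0.05). Leaving out a library gave 0 to 3 genes, with 0 without control replicate 2, 0 without control replicate 3 (266 and 331 at an unadjusted p under 0.05) and 3 without MaeaCsf1r-Cre replicate 3, one of them Hmox1. Leaving out both libraries of a number gave 0 each time (206 to 667 unadjusted). The median log2 fold change of the 10 genes was 0.05 to 0.86 with a library left out and 0.04 without both replicate 3 libraries. Values that changed sign were Zfpm1 at 0.0071 under median ratio scaling, Car2 at 0.054 under quantile normalization, and Hba-a2 at -0.067 when summed with Hba-a1 and -0.067 with the block as well. With libraries left out, the log2 fold change ranged from -0.169 to 0.058 for Zfpm1, from -0.036 to 1.18 for Car1, from -0.291 to 0.236 for Car2, from -0.096 to 1.03 for Tfrc, from -0.597 to 0.453 for Hba-a1 and from -0.415 to 0.777 for Hba-a2, and the log2 ratio of Klf1 to Fli1 from -0.037 to 1.33. The log2 ratio of Gata1 to Gata2 ranged from 0.131 to 0.987, of Gata1 to Spi1 from 0.245 to 1.21 and of Car1 to Car2 from 0.188 to 0.970. The cause of these changes was not tested.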

Other observations

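Of the other carbonic anhydrase genes, 5 of 14 were tested and none passed in either limma fit (0 had an unadjusted p under 0.05 in either). Car7 had 1.67, 1.21 and 1.23 CPM in control and 2.03, 1.77 and 1.89 CPM in MaeaCsf1r-Cre replicates 1, 2 and 3. Its groups did not overlap, as for 8.55% of all genes, and Car12 had a log2 fold change of -0.33. Car6, Car10 and Car14 were at 0 in all 6 libraries. None of the 5 had both replicate 1 libraries highest, unlike Car1 and Car2 and 17.7% of all genes.

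Markers of other blood cells were read in the same libraries, and none passed an adjusted p of 0.05 by limma with or without the block. Without the block an unadjusted p under 0.05 was found by limma for 4 of the 7 macrophage markers tested and 1 of the 2 B cell markers tested, Ighm. None of the 9 megakaryocyte and 4 neutrophil markers tested had one, and 3.99% of all genes did. The 10 megakaryocyte markers summed to 709 to 1776 CPM in control and 493 to 996 CPM in MaeaCsf1r-Cre libraries. Ppbp had a log2 fold change of -0.83. The 10 neutrophil markers summed to 76.9 to 302 CPM in control and 76.0 to 164 CPM in MaeaCsf1r-Cre libraries, and Mpo and Prtn3 had log2 fold changes of -1.47 and -0.17. Of the B cell markers, Igll1, Ms4a1 and Pax5 were at 0 in all libraries, Cd79b had a log2 fold change of -0.20, and Ighm had 16.9, 29.5 and 7.51 CPM in control and 0.279, 0.838 and 2.26 CPM in MaeaCsf1r-Cre replicates 1, 2 and 3. The log2 fold change of Ighm was -3.08 (limma, adjusted p = 0.489, and 0.141 with the block).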
